A study of Mus musculus with 4 samples.

Results

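Wnt ligands, Frizzled receptors and secreted Wnt antagonists, with the Wnt target gene Axin2, were followed across the CpG methylomes of 4 mouse livers. The rule lists the genes by name and uses no measured value, although the list was drawn up with earlier results of these data known. They were 19 Wnt ligand genes, 10 Frizzled genes (Fzd1 to Fzd10), 6 antagonist genes (Sfrp2, Sfrp4, Sfrp5, Dkk1, Dkk2 and Dkk3) and Axin2, 36 of the 26182 genes with a curated RefSeq transcript. Each gene was taken with 3 kb on either side in mm10. These windows held 4433 of the 1276684 cytosines that were read at least 10 times in all 4 livers. They were spread over 35 genes, since Wnt16 had no cytosine in any mouse. The livers came from male mice aged 6 to 8 weeks on a normal diet, 2 of an undefined mixed background that includes C57BL/6J and other strains (Mixed-1 and Mixed-2) and 2 of the C57BL/6 strain (B6-1 and B6-2). Wherever 4 values stand in a row, the mixed mice come first, then the B6 mice, each in the order of their numbers. The labels name no engineered allele and no treatment. The mixed and the B6 mice were kept at different institutions and the B6 libraries were deeper, so strain, housing and depth cannot be told apart.

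Wnt ligands are secreted lipid-modified glycoproteins that bind Frizzled proteins, receptors that cross the cell membrane several times. In the canonical branch this stabilizes beta-catenin, which then switches on target genes such as Axin2, itself a negative regulator of the pathway. Sfrp proteins bind Wnt ligands outside the cell, whereas Dkk1 and Dkk2 act on the co-receptors Lrp5 and Lrp6. In the liver, Wnt signals from endothelial cells near the central vein set the gene program of pericentral hepatocytes.

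Enhanced reduced representation bisulfite sequencing (ERRBS) cut the DNA, per the labels with MspI at CCGG, and read the ends of short fragments after bisulfite treatment. Methylated cytosines then appear as C and the others as T. The methylation level of a gene region is given here as the mean, over its cytosines, of the percent of reads that were C. Each strand of a CpG was measured separately. The promoter was the stretch within 1000 bp of a curated transcription start site (TSS), the body the rest of the gene, and the flank the 3 kb beyond the gene outside the promoter. Levels under 20% are called hypomethylated and those over 80% hypermethylated. The level of a single cytosine is its mean over the 4 mice unless it is given for each mouse. All values after ± are SD over n = 4 mice unless stated.

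The covered cytosines lay on 19.0% of the 18139 CpGs in the windows. Receptor windows were covered best, at 28.9% of their CpGs, followed by ligand windows at 17.9% and antagonist windows at 6.48%. Coverage of single genes ran from 5 of 800 CpGs in Dkk2 to 46.8% of the CpGs in Fzd10. The median coverage of member cytosines common to the 4 mice was 46, 50, 72 and 67 reads. The mean coverage of whole libraries ranged from 44.2 to 63.7 reads per cytosine. DNA came from whole liver, so a partial level at a cytosine cannot be told apart from a mixture of cells or alleles that were fully methylated or fully unmethylated. Of 8 hepatocyte marker genes, only Hnf4a and Fgb had a promoter with at least 5 common cytosines, at 28.7% ± 3.97 and 29.95% ± 5.93. Promoters of Kupffer cell, endothelial and lymphocyte markers had fewer than 5, so the tissue label could not be checked against them. Stellate cell marker promoters were between 0.476% and 10.01%, and cholangiocyte ones between 2.70% and 27.7%. The study also sequenced RNA from the livers of Mixed-1 and Mixed-2, but no transcript level was used here.

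Promoters were hypomethylated in all 3 classes, and the receptors were lowest. Ligand promoters averaged 1.92%, 1.83%, 1.61% and 1.70% over 1337 cytosines of 17 genes. Receptor promoters were at 0.563%, 0.526%, 0.597% and 0.563% over 941 cytosines of 10 genes. Antagonist promoters were at 4.31%, 3.72%, 3.87% and 3.88% over 148 cytosines of 6 genes. The ranges of the 3 classes over the mice did not overlap. Ligands exceeded receptors by 1.21 ± 0.155 percentage points. Receptors were below antagonists, with a difference of -3.38 ± 0.247 points, and so were ligands, with -2.18 ± 0.213 points. Each sign held in 4 of 4 mice. The two-sided exact permutation test, which flips the sign of the difference within each mouse, gave p = 0.125 for each, the smallest that 4 mice allow, and 0.136 after Benjamini-Hochberg adjustment over 12 class contrasts. The same cytosines are read in every mouse, so this p measures agreement between mice and not spread between genes. The place of the antagonists above the ligands came from 1 gene, Dkk3. Without it, antagonist promoters were at 1.57%, 1.62%, 1.52% and 1.36%, and ligands exceeded them by 0.250 points. With each gene weighted equally, ligands also exceeded antagonists, by 2.47 points. Without Wnt8a, whose promoter had only 2 cytosines, this difference was -2.12 points. With promoters of 2000 bp on each side, ligands minus receptors was -1.40 points.

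**Figure D1:**
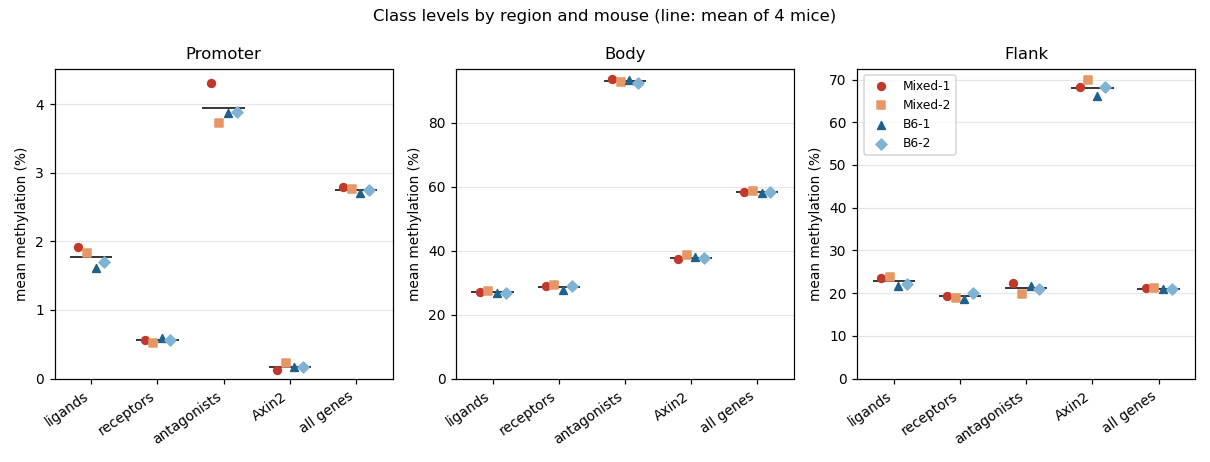
Mean methylation (percent, linear axes that start at 0 and differ between panels) of the ligands, receptors, antagonists, Axin2 and all genes, in promoters, bodies and flanks. Each symbol is 1 mouse and each line the mean of the 4 mice. Promoters lay below 5% in every class, bodies of ligands and receptors near 27% to 29% against 58.3% for all genes, and the antagonist body value is that of Dkk3 alone.

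Every member promoter with at least 5 cytosines was hypomethylated as a mean, 33 of 33, and 30 of these were below 5%. Among all other genes, 91.2% of 14879 such promoters were hypomethylated. Pooled over cytosines, member promoters were at 1.44%, 1.36%, 1.28% and 1.31%. All gene promoters together were at 2.76% ± 0.0371. The difference of -1.41 ± 0.0365 points had the same sign in 4 of 4 mice (exact permutation p = 0.125 with sign flips, smallest possible; 0.125 adjusted over the 3 regions). The median over genes did not follow this order. It was 1.32% for the member promoters and 0.314% for the other genes. Of 2607 member promoter cytosines, 2581 were hypomethylated, 24 were intermediate and 2 were hypermethylated.

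Among ligand promoters with at least 5 cytosines, the highest was that of Wnt10a, a ligand of skin, hair and tooth development, at 9.35%, 7.85%, 5.07% and 6.82% (15 cytosines). Wnt5a, the best known non-canonical ligand, followed at 5.73%, 6.87%, 4.26% and 3.996% (55 cytosines). In both genes the 2 mixed mice lay above the 2 B6 mice, but in Wnt10a this rested on 1 cytosine, without which the levels were 5.13%, 5.73%, 4.86% and 6.35% and the strains overlapped. The Wnt5a level lay at its downstream start. Within 500 bp of the TSS at 28505473 on chromosome 14, 8 cytosines averaged 0.531% ± 0.669, whereas 23 cytosines around the TSS at 28511405 averaged 13.1%, 16.2%, 9.46% and 9.02%. Wnt5b showed the same arrangement of starts, with 0.952% ± 0.160 over 111 cytosines around the upstream TSS at 119544347 on chromosome 6 and 21.96% ± 2.61 over 6 cytosines around that at 119449386. Wnt11 was low at both of its starts, at 0.578% ± 0.0367 and 0.842% ± 0.271, and Wnt7b at its 3 starts, between 1.23% and 2.75%.

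The lowest ligand promoter was that of Wnt9a, at 0.212%, 0.128%, 0.203% and 0.199% over 88 cytosines. Wnt2b, the next, was at 1.08%, 0.700%, 0.751% and 0.868%. Wnt9a thus lay below the other ligands in every mouse, while Wnt2b, Wnt9b, Wnt11 and Wnt2 lay between 0.849% and 0.917% and did not differ beyond the spread between mice. The other ligands with at least 5 cytosines ranged from 1.07% in Wnt7a to 3.59% in Wnt1. Wnt8a was the exception among all members. Its promoter held only 2 cytosines, with a mean of 83.3%, 77.3%, 75.0% and 84.6%, and had the lowest observed to expected CpG ratio of all members, 0.282. Wnt8b had no common cytosine in its promoter.

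Promoter sequence is shown for the lowest and the highest member of each class among those with an entry in the RefSeq promoter table (26 of 36) and at least 5 common cytosines in the stretch, with Sfrp5 the only such antagonist, so that the density of unmethylated CpGs can be seen. Each runs from 250 bp before to 30 bp after the TSS on the strand of the gene, in mm10, and capitals mark CpGs measured in all 4 mice.
Wnt9a promoter, chr11:59306680-59306959, plus strand: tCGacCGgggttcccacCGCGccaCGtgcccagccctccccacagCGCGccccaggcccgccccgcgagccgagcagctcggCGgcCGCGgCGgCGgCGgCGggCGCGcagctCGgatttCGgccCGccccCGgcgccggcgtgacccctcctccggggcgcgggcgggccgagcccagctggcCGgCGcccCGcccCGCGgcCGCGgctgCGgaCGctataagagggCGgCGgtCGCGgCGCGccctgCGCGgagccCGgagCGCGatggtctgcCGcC
Wnt1 promoter, chr15:98789607-98789886, plus strand: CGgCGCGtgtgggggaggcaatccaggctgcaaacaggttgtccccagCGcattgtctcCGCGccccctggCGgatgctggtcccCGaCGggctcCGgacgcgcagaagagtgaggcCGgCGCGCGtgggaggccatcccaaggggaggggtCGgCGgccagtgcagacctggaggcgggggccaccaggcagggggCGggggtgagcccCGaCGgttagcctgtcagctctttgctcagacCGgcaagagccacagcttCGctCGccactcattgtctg
Fzd5 promoter, chr1:64737721-64738000, minus strand: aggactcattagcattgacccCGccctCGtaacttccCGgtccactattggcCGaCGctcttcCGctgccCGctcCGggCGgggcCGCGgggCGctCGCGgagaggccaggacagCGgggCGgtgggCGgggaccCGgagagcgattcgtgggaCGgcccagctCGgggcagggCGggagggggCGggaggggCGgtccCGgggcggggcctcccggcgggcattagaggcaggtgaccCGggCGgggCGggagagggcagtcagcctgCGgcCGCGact
Fzd10 promoter, chr5:128600856-128601135, plus strand: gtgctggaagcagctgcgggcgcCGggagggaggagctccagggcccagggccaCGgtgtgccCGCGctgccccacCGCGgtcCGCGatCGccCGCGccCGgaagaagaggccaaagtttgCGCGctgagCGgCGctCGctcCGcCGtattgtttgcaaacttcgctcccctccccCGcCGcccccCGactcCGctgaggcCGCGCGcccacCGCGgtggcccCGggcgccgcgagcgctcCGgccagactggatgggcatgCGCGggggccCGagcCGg
Sfrp5 promoter, chr19:42202223-42202502, minus strand: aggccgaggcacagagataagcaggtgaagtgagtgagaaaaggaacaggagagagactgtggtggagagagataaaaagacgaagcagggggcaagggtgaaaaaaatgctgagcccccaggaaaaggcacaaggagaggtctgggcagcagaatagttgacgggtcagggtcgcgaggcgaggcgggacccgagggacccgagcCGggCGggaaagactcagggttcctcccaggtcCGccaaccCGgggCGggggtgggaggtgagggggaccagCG
Axin2 promoter, chr11:108920099-108920378, plus strand: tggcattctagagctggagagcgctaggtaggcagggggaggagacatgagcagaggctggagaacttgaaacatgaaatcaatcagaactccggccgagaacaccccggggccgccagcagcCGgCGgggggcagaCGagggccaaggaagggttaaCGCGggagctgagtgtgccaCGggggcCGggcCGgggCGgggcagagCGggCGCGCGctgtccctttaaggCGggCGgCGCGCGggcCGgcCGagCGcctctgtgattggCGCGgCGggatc
In the Wnt9a stretch, 41 of 54 CpGs were measured, and its 48 cytosines averaged 0.128%, with 1.79% at the highest. In the Wnt1 stretch, 24 cytosines at 22 CpGs averaged 2.45%, with 23.1% at the highest. The 45 cytosines of the Fzd5 stretch averaged 0.0564% and the 42 of Fzd10 0.482%. Sfrp5 had only 9 cytosines in its stretch, at 1.57%, and Axin2 had 43, at 0.143%.

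Receptor promoters were almost free of methylation. Fzd7 was lowest, at 0.0997%, 0.0816%, 0.100% and 0.101% over 94 cytosines, and Fzd5 was next, at 0.160%, 0.0614%, 0.119% and 0.0585% over 109 cytosines. These genes did not differ beyond the spread between mice. Fzd8, Fzd1 and Fzd4 lay between 0.164% and 0.202%, Fzd3 was at 0.496%, Fzd9 at 0.655% and Fzd10 at 1.15%. The 2 highest were Fzd2, at 1.21%, 1.92%, 2.64% and 1.07%, and Fzd6, at 2.62%, 2.45%, 2.50% and 2.34%. Around the starts of Fzd6 itself the level was 0.245% ± 0.144 over 42 cytosines within 500 bp, and 3 cytosines at 20% or more, up to 38.2%, lay farther from them. Start sites of other genes lie in some of these promoters: 56 Fzd4 cytosines were also within 1000 bp of a Tmem135 TSS, 134 Fzd10 cytosines of an Fzd10os TSS, and 202 Wnt7b cytosines of an AU022754 TSS.

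Among the antagonists, Dkk3, a divergent member of the Dickkopf family, had the highest promoter level of all members with at least 5 cytosines, at 19.2%, 15.1%, 16.7% and 17.6% over 23 cytosines. Of these, 14 were hypomethylated and 9 intermediate, up to 70.3%. Its starts differed. The 6 cytosines within 500 bp of the TSS at 112159131 on chromosome 7 averaged 45.8%, 32.4%, 33.5% and 29.8%. The same 6 lay within 500 bp of the most upstream TSS, at 112159482, so their level cannot be assigned to either of these starts. The 20 around the downstream TSS at 112158696, some of them in both sets, averaged 17.4%, 12.1%, 13.6% and 12.2%. Dkk1, which blocks the co-receptors, was far lower, at 2.39%, 2.66%, 3.09% and 2.72% over 16 cytosines. The lowest antagonists were Sfrp4, at 0%, 0.692%, 0.402% and 0.376% over 11 cytosines, where 0 methylated of 454 reads in Mixed-1 allows up to 0.661% by counting error alone (3 reads of the total), and Sfrp2, at 1.45%, 1.37%, 1.32% and 1.13% over 70 cytosines. Sfrp5 was at 1.70% ± 0.355 and Dkk2 at 2.11% ± 0.931. The range of Dkk2 over the mice overlapped those of Dkk1 and Sfrp5.

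The promoter of Axin2, whose transcript is a standard readout of canonical signaling, was at 0.131%, 0.222%, 0.166% and 0.175% over 181 cytosines, of which the highest was at 2.53%.

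**Figure D2:**
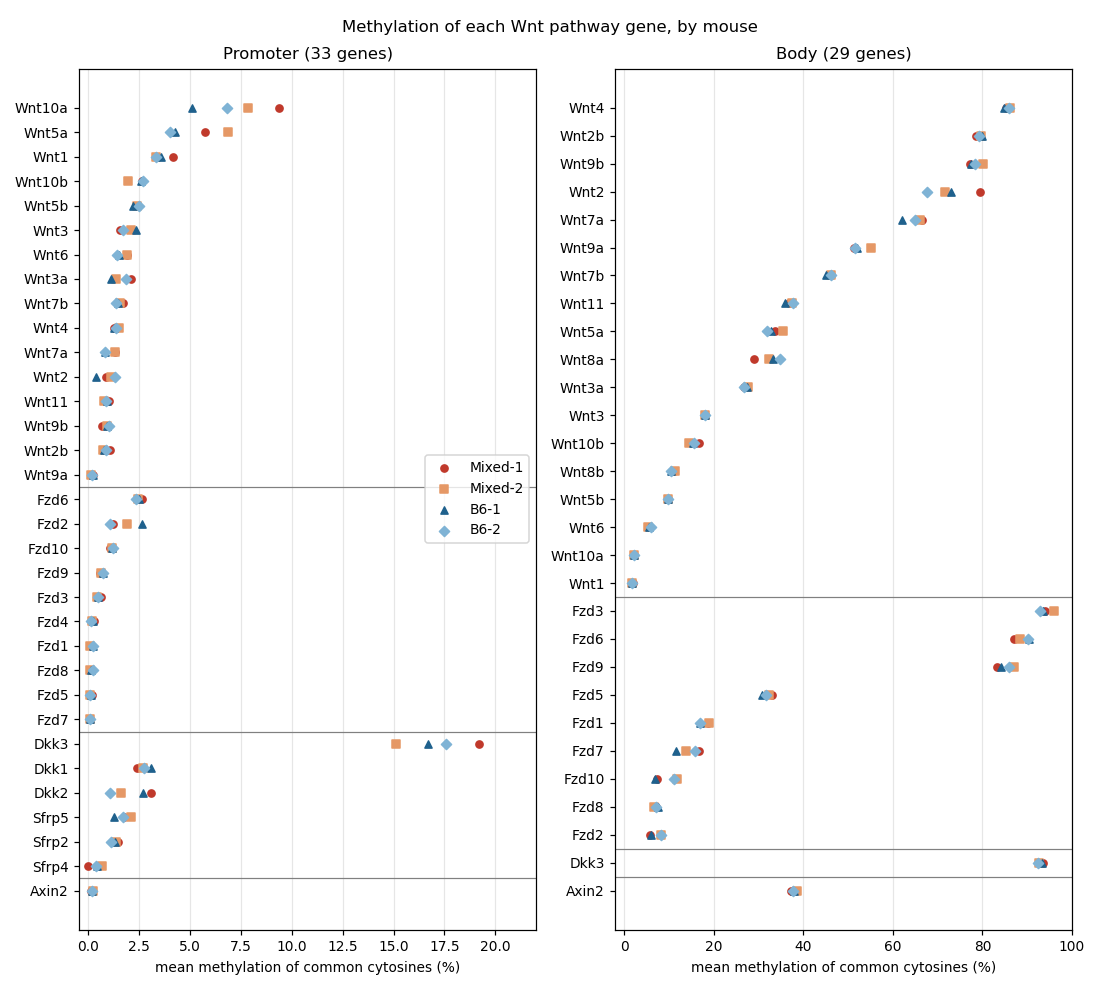
Mean methylation (percent) of the promoter (left, axis to 22%) and the body (right, axis to 100%) of each gene with at least 5 common cytosines in that region. Rows are grouped from top to bottom as ligands, receptors, antagonists and Axin2, ordered by level within a class, and each symbol is 1 mouse. Promoters lie at or below 9.35% in every mouse except that of Dkk3, while bodies run from 1.71% in Wnt1 to 94.0% in Fzd3 with the mice of a gene close together.

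Pooled over cytosines, gene bodies of the ligands and receptors were less methylated than those of other genes and far more varied than their promoters. For the receptors this order did not hold at like distances from the TSS beyond 2 kb, as given below. Ligand bodies averaged 27.0%, 27.3%, 26.7% and 26.8% over 1170 cytosines of 18 genes. Receptor bodies averaged 28.9%, 29.3%, 27.7% and 29.0% over 368 cytosines of 10 genes. All members together were at 28.6% ± 0.340 and all genes at 58.3% ± 0.299. The difference of -29.7 ± 0.0849 points had 1 sign in 4 of 4 mice (exact permutation p = 0.125 with sign flips, smallest possible). Over genes with at least 5 body cytosines, the median was 32.3% for 29 members and 78.3% for 11157 other genes. Of the members, 12 bodies were hypomethylated, 12 intermediate and 5 hypermethylated, against 10.6% hypomethylated and 46.4% hypermethylated among the other genes.

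As pooled means, the bodies of ligands and receptors were close to each other. At like distances from the TSS, receptors were mostly higher. From 1 to 2 kb downstream, ligands were at 3.93% ± 0.230 and receptors at 15.8% ± 0.575. From 2 to 3 kb they were at 20.7% ± 0.702 and 43.8% ± 2.84. From 3 to 5 kb they overlapped, at 66.8% ± 2.53 and 68.7% ± 7.01. Beyond 10 kb they were at 38.0% ± 0.507 and 89.8% ± 1.59, the latter over 25 cytosines of 2 genes. The pooled difference of ligands minus receptors was -1.77 ± 0.484 points, negative in 4 of 4 mice, at the smallest exact permutation p of 0.125. This direction depended on a gene nested in Wnt5b. Of the 240 Wnt5b body cytosines, 205 lay within 1000 bp of the TSS of Fbxl14 and averaged 0.559%. The other 35 were at 63.0%, 64.2%, 63.2% and 63.4%, whereas all 240 together gave 9.73% ± 0.0670. Without cytosines near starts of other genes, ligand bodies were at 32.6% ± 0.347 and exceeded receptor bodies by 3.83 points, while members minus all genes stayed at -28.2 points. Pooled over the cytosines of a class, bodies exceeded promoters by 25.2 ± 0.201 points in ligands, 28.2 ± 0.710 in receptors and 89.0 ± 0.400 in antagonists, again at p = 0.125 by the exact permutation test. The antagonist value sets the body of Dkk3 alone against the promoters of 6 genes. Gene by gene, with at least 5 cytosines in both regions, the body was the higher in every mouse in 14 of 16 ligands and 9 of 9 receptors, and the lower in every mouse in Wnt1 and Wnt10a. With promoters taken as the 1000 bp upstream only, which moves the first part of the gene into the body, members minus all genes was -10.5 points.

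Among the ligands, Wnt4 had the highest body level, at 85.3%, 86.2%, 84.7% and 85.8% over 60 cytosines, followed by Wnt2b at 78.5%, 79.8%, 79.9% and 79.2% and Wnt9b at 78.3% ± 1.36. Wnt1, the founding member of the family, had the lowest, at 1.85%, 1.65%, 1.60% and 1.73% over 60 cytosines. Wnt10a was next at 2.25%, 2.13%, 2.18% and 2.16% over 64 cytosines. These lowest bodies differed from each other by more than the spread between mice. Wnt6 was at 5.66% ± 0.272, Wnt8b at 10.8% ± 0.485, Wnt10b at 15.5% ± 0.884 and Wnt3 at 17.99% ± 0.0660. Apart from Wnt5b, given above with and without the cytosines near Fbxl14, the remaining ligands ran from 27.1% in Wnt3a to 72.8% in Wnt2. Wnt1 lies next to Wnt10b on chromosome 15, and Wnt6 next to Wnt10a on chromosome 1. The low bodies included both genes of each of these neighbouring pairs. The neighbouring pairs on chromosome 11 were unlike, with Wnt3 at 17.99% beside Wnt9b at 78.3% and Wnt3a at 27.1% beside Wnt9a at 52.5%.

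Coding sequence separated the ligands most sharply. Among body cytosines 2 kb or more from every TSS of their gene, coding exons of 16 ligands had at least 5. In 4 of them coding exons were hypomethylated. Wnt10a was at 0.622%, 0.743%, 0.825% and 0.962% over 48 cytosines. Wnt1 was at 0.886%, 2.72%, 1.46% and 1.301% over 10, Wnt6 at 3.58% ± 0.266 over 43 and Wnt8b at 5.01% ± 0.229 over 40. In 9 of them coding exons were hypermethylated, from 80.04% in Wnt3a to 94.7% in Wnt2b. Wnt4, which acts in kidney and reproductive tract development, was at 90.3%, 91.6%, 91.6% and 93.0% over 37 cytosines. The 3 in between were Wnt8a at 28.7% ± 3.32, Wnt10b at 31.6% ± 1.98 and Wnt2, known from liver sinusoidal endothelium, at 62.4% ± 6.32. No mouse of the low group came near any of the high group. Distance beyond 2 kb was not matched between these genes. The Wnt1 cytosines end 2501 bp from its TSS, and all ligand cytosines from 2 to 3 kb downstream averaged 20.7% ± 0.702. Among other genes, 8.61% of 4878 had hypomethylated coding exons by the same measure and 65.1% hypermethylated ones.

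Introns of the ligands were lower than their coding exons in several genes. In Wnt3, 141 intronic cytosines 2 kb or more from the TSS were at 12.5%, 12.7%, 12.4% and 12.4%, while 10 coding cytosines were at 94.7%, 92.2%, 94.1% and 94.9%. Wnt3a was at 22.1% ± 0.785 over 65 intronic and 80.04% ± 5.25 over 12 coding cytosines, and Wnt5a at 10.2% ± 1.49 over 12 and 85.1% ± 1.22 over 18. The order was turned in Wnt6 and Wnt8b, where introns were at 23.3% ± 2.17 and 31.4% ± 1.26 against the low coding exons given above. In Wnt1 and Wnt10a introns also had the higher mean, but both features were low. Their introns were at 3.14% ± 0.916 over 5 and 1.61% ± 1.01 over 6 cytosines, against 1.59% ± 0.789 and 0.788% ± 0.143 in coding exons. Over all ligand bodies, intronic cytosines averaged 19.7% ± 0.412 and coding cytosines 38.9% ± 0.195. In the other genes the same features were at 60.7% ± 0.392 and 59.0% ± 0.194. Of the 733 intronic ligand cytosines, 238 were in Wnt5b, where Fbxl14 lies, and 141 in Wnt3.

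**Figure D3:**
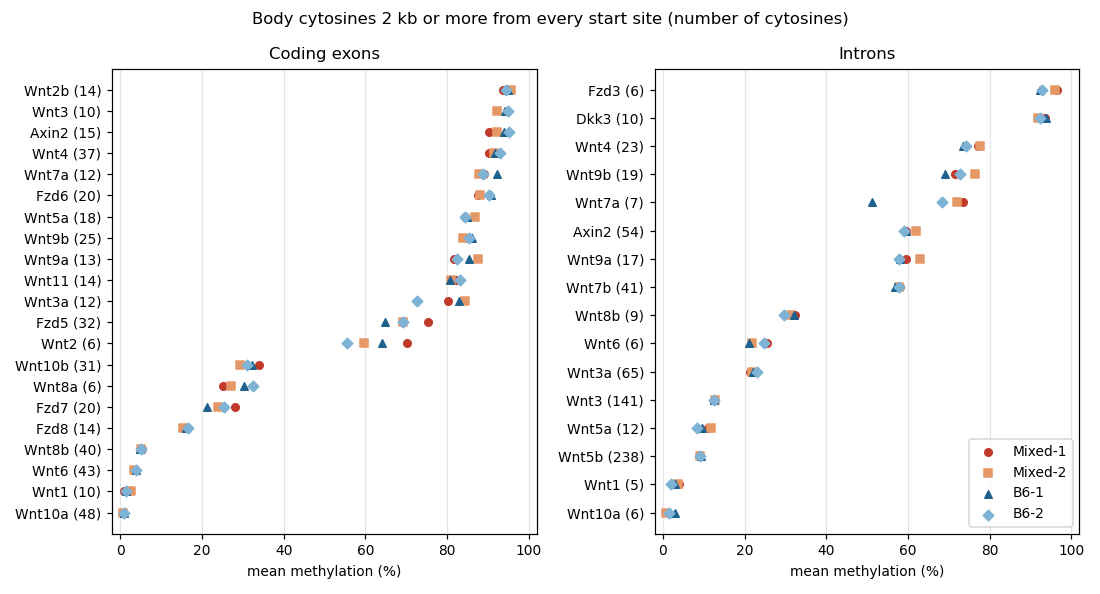
Mean methylation (percent) of body cytosines at least 2 kb from every start site of their gene, in coding exons (left) and introns (right), for genes with at least 5 such cytosines, whose number stands in parentheses. Each symbol is 1 mouse. Coding exons of Wnt10a, Wnt1, Wnt6 and Wnt8b lie at or below 5.33% in every mouse and those of the genes above Wnt2 and Fzd5 at 72.6% or more, and the introns of Wnt3 and Wnt5a lie far below their coding exons.

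Stretches of 200 bp of coding sequence with the most measured cytosines are shown for the lowest and the highest ligand body and for Fzd9, which stands apart among the receptors, since closely spaced CpGs were unmethylated in the first and methylated in the others. The stretches are not matched for distance from the TSS. Common cytosines of Wnt1 end 2501 bp downstream of its TSS and those of Fzd9 at 1708 bp. The Wnt4 cytosine at 137296441, in its stretch, lies 18806 bp downstream. Capitals again mark measured CpGs, in mm10 on the strand of the gene.
Wnt1 coding stretch, chr15:98791745-98791944, plus strand: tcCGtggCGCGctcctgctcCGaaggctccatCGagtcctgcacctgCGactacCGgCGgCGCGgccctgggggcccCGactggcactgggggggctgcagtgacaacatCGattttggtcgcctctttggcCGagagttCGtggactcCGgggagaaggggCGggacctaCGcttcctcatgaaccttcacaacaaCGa
Wnt4 coding stretch, chr4:137296439-137296638, plus strand: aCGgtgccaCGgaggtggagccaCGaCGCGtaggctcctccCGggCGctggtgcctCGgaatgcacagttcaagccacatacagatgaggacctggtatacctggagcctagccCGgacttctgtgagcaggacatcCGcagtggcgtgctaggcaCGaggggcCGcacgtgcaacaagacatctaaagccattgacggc
Fzd9 coding stretch, chr5:135249517-135249716, minus strand: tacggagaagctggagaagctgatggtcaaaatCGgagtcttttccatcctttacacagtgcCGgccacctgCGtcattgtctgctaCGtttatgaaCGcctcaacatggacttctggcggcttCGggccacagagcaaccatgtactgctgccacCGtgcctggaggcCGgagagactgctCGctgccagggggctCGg
The 24 cytosines of the Wnt1 stretch averaged 2.35%, 1.89%, 1.88% and 2.36%. The 14 of Wnt4 averaged 88.2%, 86.8%, 89.6% and 92.6%, and the 12 of Fzd9 86.0%, 88.1%, 88.2% and 89.0%. As means of the 4 mice, every cytosine of the Wnt1 stretch was at or below 6.44% and every one of the Wnt4 stretch at or above 79.7%. In single mice the bound did not hold, since the Wnt4 cytosine at 137296441 was at 70.8% and 56.3% in the mixed mice.

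Receptor bodies fell into high and low genes. Fzd3, at 93.9%, 96.0%, 93.4% and 92.8% over 10 cytosines, and Fzd6, at 87.2%, 88.4%, 90.5% and 90.2% over 21 cytosines, are the receptors with 6 coding exons, and both were hypermethylated. Fzd4, with 2 coding exons, had 4 body cytosines at 81.4% ± 7.32. The common body cytosines of Fzd3, Fzd6 and Fzd4 began 6388, 25093 and 3209 bp downstream of the most upstream TSS. The 7 others have 1 coding exon, and 256 of their cytosines lay 1 to 2 kb downstream. Number of coding exons and distance thus go together here. Fzd2 was lowest, at 5.84%, 8.15%, 6.05% and 8.18% over 55 cytosines, and Fzd8 next, at 7.16%, 6.61%, 7.41% and 7.11% over 60 cytosines. These levels did not differ beyond the spread between mice. Fzd10 was at 9.26% ± 2.55, Fzd7 at 14.5% ± 2.23, Fzd1 at 17.9% ± 1.07 and Fzd5 at 31.9% ± 1.00. Fzd9 alone among the 7 was hypermethylated, at 83.2%, 87.0%, 84.2% and 86.0% over 24 cytosines.

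Along each receptor gene with a single coding exon, the methylation of the coding sequence rose with distance from the TSS, at different points and to different heights. In the first 1000 bp, coding cytosines averaged between 0.0602% in Fzd7 and 1.58% in Fzd10, in the 6 genes that had any. From 1000 to 2000 bp, Fzd7 was still at 1.06% ± 1.11, Fzd8 at 4.33% ± 0.354, Fzd2 at 6.26% ± 0.881, Fzd10 at 9.26% ± 2.55, Fzd1 at 13.4% ± 1.32 and Fzd5 at 14.6% ± 1.06. Fzd9 was at 85.1% ± 1.68 at that distance, and no mouse of the other 6 genes came near it. Beyond 2000 bp, the coding cytosines of Fzd8 reached 16.1% ± 0.458, those of Fzd7 24.6% ± 2.84, those of Fzd5 69.7% ± 4.33 and those of Fzd1 76.3% ± 2.67, the last over 3 cytosines. The first cytosine over 50% downstream of the TSS lay at 1204 bp in Fzd9, 1784 bp in Fzd1 and 1781 bp in Fzd5, and Fzd7, Fzd8 and Fzd10 had none within their windows.

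**Figure D4:**
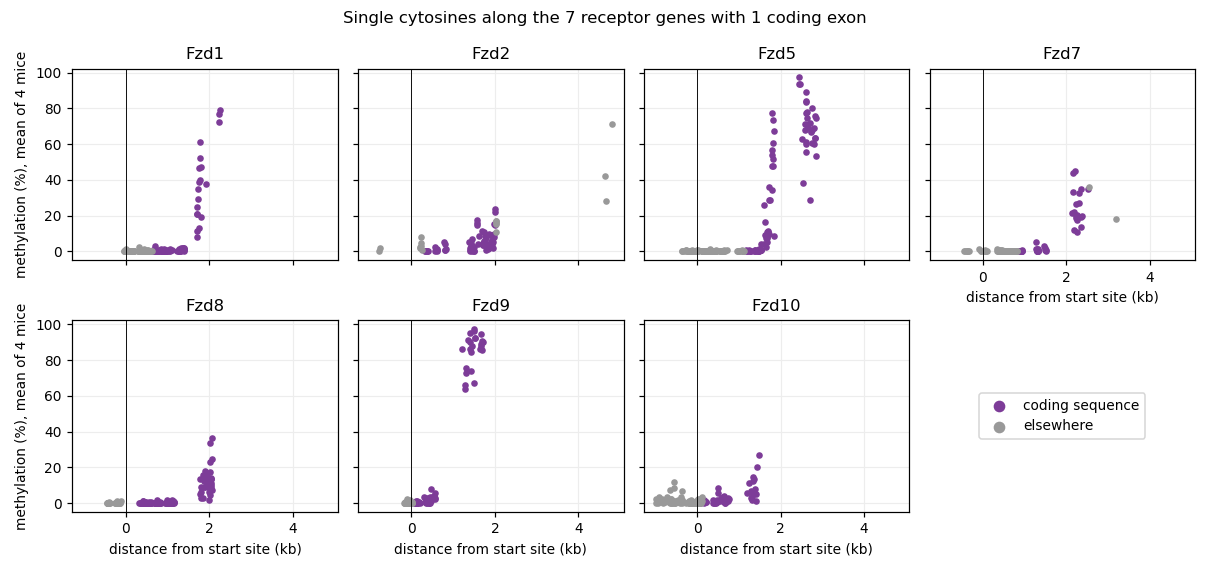
Methylation of single common cytosines (percent, mean of 4 mice) against distance from the start site (kb, to 5 kb) in the 7 receptor genes with 1 coding exon. Purple points lie in coding sequence and grey points elsewhere. All genes are near 0% at the start, the cytosines of Fzd9 from 1204 bp on are at 63.7% or more, and those of Fzd8 and Fzd10 reach no more than 36.2% and 27.0%.

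Only Dkk3 among the antagonists had body cytosines common to the 4 mice. They were at 93.5%, 92.5%, 93.4% and 92.5% over 11 cytosines, of which 10 were intronic. Comparisons of antagonist bodies with the other classes (-66.0 ± 0.704 points for ligands and -64.3 ± 1.10 for receptors, p = 0.125 by the exact permutation test) are thus comparisons with 1 gene. With promoters upstream only, the low cytosines downstream of the antagonist starts count as body, and these differences were 7.49 and 0.373 points. The Axin2 body was at 37.2%, 38.5%, 37.9% and 37.6% over 123 cytosines, of which 69 were hypomethylated, 10 intermediate and 44 hypermethylated. Its coding exons 2 kb or more from the TSS were at 92.9% ± 2.11 over 15 cytosines and its introns at 60.0% ± 1.27 over 54.

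With distance from the TSS, the levels of members and other genes rose from a low floor, and far from it the ligands, pooled over cytosines, stayed lower. Within 500 bp downstream of a TSS, members were at 1.35% ± 0.0767 over 1230 cytosines and other genes at 1.88% ± 0.0280. From 1 to 2 kb downstream, members were at 9.47%, 10.2%, 9.52% and 9.97%, and other genes at 17.1% ± 0.165. From 3 to 5 kb the order was turned, at 67.1% ± 2.23 over 32 member cytosines of 7 genes against 48.8% ± 0.305. From 5 to 10 kb, members were at 52.8% ± 0.442 against 61.2% ± 0.291. Beyond 10 kb, 666 member cytosines of 19 genes were at 44.0%, 45.0%, 43.9% and 44.1%, while other genes were at 70.5% ± 0.349. The last gap was wider than the spread between mice in either set, which does not measure the spread between genes. Of the member cytosines in that bin, the 580 in 15 ligand genes were at 38.0% ± 0.507, the 25 in 2 receptor genes at 89.8% ± 1.59, the 9 in 1 antagonist gene at 91.7% ± 0.760 and the 52 in Axin2 at 84.2% ± 1.05. Receptor cytosines lay mostly nearer the TSS, with 256 from 1 to 2 kb downstream at 15.8% ± 0.575, beside 17.1% in other genes. In each bin beyond 2 kb the receptors were the higher. From 2 to 3 kb they were at 43.8% ± 2.84 over 75 cytosines of 5 genes against 36.7% ± 0.301. From 3 to 5 kb they were at 68.7% ± 7.01 over 5 cytosines against 48.8%. Cytosines of 1 gene are not independent of each other, and these class levels were not tested. Pooling also gives genes with many covered cytosines more weight. Gene by gene, at 2 kb or more, coding exons had a median of 80.9% in 16 ligands and 86.6% in other genes. Introns had a median of 23.3% in 13 ligands and 79.2% in other genes. No bin held the 213 cytosines of Wnt5b that lay more than 3 kb before the nearer of its starts, at 2.18% ± 0.179, many of them near Fbxl14. Distances were counted to the nearest TSS of the gene, so that upstream bins include cytosines of bodies before an alternative start.

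**Figure D5:**
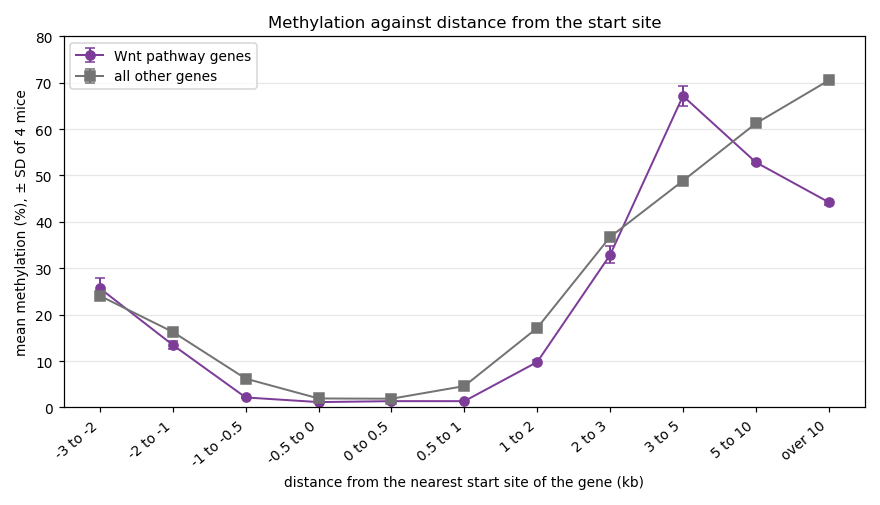
Mean methylation (percent) of common cytosines in bins of distance from the nearest start site of the gene (kb, bins of unequal width). Circles are the Wnt pathway genes and squares all other genes, and bars are SD over 4 mice. Within 1 kb of the start other genes reach at most 6.20% and members 2.15%, and members end at 44.2% against 70.5% beyond 10 kb, with cytosines more than 3 kb before the nearest start left out.

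Flanks held few cytosines, and their class order did not hold. Ligand flanks were at 23.6%, 23.7%, 21.6% and 22.2% over 111 cytosines of 12 genes, receptor flanks at 19.4%, 18.9%, 18.7% and 20.1% over 20 of 4 genes, and antagonist flanks at 22.5%, 19.8%, 21.7% and 21.1% over 16 of 3 genes. Ligands exceeded receptors by 3.56 ± 1.23 points (exact permutation p = 0.125) and antagonists by 1.55 ± 1.70 points in 3 of 4 mice (exact permutation p = 0.250). Weighting genes equally turned the first difference to -32.6 points and the second to -21.2. Single flanks ranged widely. Wnt4 was at 76.5%, 81.5%, 76.4% and 75.4% over 9 cytosines and Wnt2b at 44.3%, 43.7%, 35.5% and 37.4% over 5. Wnt10a was at 2.15%, 2.28%, 2.12% and 1.78% over 30 cytosines, and Wnt2 at 3.75%, 4.07%, 4.02% and 2.08% over 12. The highest and the lowest flanks were thus far apart in every mouse. Fzd10, at 2.53%, 3.68%, 4.05% and 3.06% over 15, and Sfrp2, at 7.58%, 1.63%, 3.18% and 4.38% over 12, were the only receptor and antagonist flanks with at least 5 cytosines. The Axin2 flank was at 68.2%, 70.0%, 66.0% and 68.1% over 7. The other ligand flanks with at least 5 cytosines ranged from 3.96% in Wnt3 to 33.7% in Wnt10b. Members exceeded all genes by 3.16 ± 0.666 points in flanks (exact permutation p = 0.125). Without cytosines near starts of other genes, the difference was -17.6 points.

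Promoters of other genes of the pathway were also low, as most promoters were. Of 43 listed genes, 39 had at least 5 promoter cytosines and all 39 were hypomethylated. Their median was 0.538%, beside 1.32% for the members and 0.314% for other genes, with no test of these medians. The highest was Dvl2, a cytoplasmic adaptor of Frizzled receptors, at 17.5%, 18.7%, 17.6% and 15.2%. It was followed by Kremen2, a Dkk co-receptor, at 4.77% ± 0.660 and Ror2, a receptor for Wnt5a, at 2.57% ± 0.336. Bodies of these genes had a higher median than those of the members. Over 37 genes the median was 71.4%, with 4 hypomethylated, 19 intermediate and 14 hypermethylated. The lowest were Sost, an Lrp5 and Lrp6 antagonist, at 0.329% ± 0.117 over 60 cytosines, and Sp5, a target gene, at 4.24% ± 0.258 over 78.

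Sequence composition differed between the classes. The observed to expected CpG ratio of the promoter, over 2000 bp around the most upstream TSS, was above 0.6 in 10 of 10 receptors, 12 of 19 ligands and 2 of 6 antagonists. It was 0.353 in Dkk3 and 0.923 in Fzd3, the highest. Over 33 members, the promoter level and this ratio had a Spearman correlation of -0.498. Over 29 members, the body level had a correlation of -0.583 with the CpG density of the body, 0.490 with gene length and 0.512 with the number of coding exons. These correlations are across genes of the same 4 libraries and are descriptions. The distance of the body cytosines from the TSS differed between genes and was not adjusted for. The genes share family history, base composition and depth, and 7 of the 36 are receptor genes with a single coding exon.

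The strains were close at these genes. Member promoters averaged 1.40% ± 0.0596 in the mixed and 1.29% ± 0.0247 in the B6 mice (SD over 2 mice here and below), a difference of 0.106 points against 0.0540 for all genes. Bodies averaged 28.8% ± 0.288 and 28.3% ± 0.251, a difference of 0.448 points against 0.372 for all genes. Flanks averaged 24.9% ± 0.136 and 23.6% ± 0.445, a difference of 1.28 points against 0.207. In each region both mixed mice were above both B6 mice, in the members as in all genes, and the two-sided exact permutation test gave p = 0.333, the smallest that 2 mice against 2 allow. Pooling reads over all cytosines turned the body difference to -0.449 points.

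No member cytosine was called different between the strains. A logistic model of methylated and unmethylated reads, with an overdispersion moderated by limma, called 84 of the 1276684 common cytosines, or 0.00658%, at an adjusted p under 0.01 and a difference of at least 25 points, and 0 of the 4433 member cytosines. At an unadjusted p under 0.05 there were 66 of the 4433 member cytosines, a smaller share than the 2.07% of all cytosines. At an adjusted p under 0.05 and at least 10 points there were 0 member cytosines and 0.0208% of all. Limma on log2 ratios called 0 member cytosines and 0% of all. Fisher's exact test on reads summed over the mice of a strain, blind to differences within a strain, called 5 member cytosines and 0.126% of all. On reads summed over regions, the same logistic model called 0 of 74 member regions and 0% of 31477 regions. At an unadjusted p under 0.05 it had 13 of the 74 member regions, a larger share than the 8.56% of all regions, and this excess was not tested. Limma on the means of cytosines had 5 of the 74 member regions and 6.45% of all. These 5, named after their values were seen, were the promoters of Wnt5a, Wnt6 and Wnt7a and the flank of Wnt2b, higher in the mixed mice, and the body of Fzd6, lower in them. The Wnt6 promoter was at 1.92%, 1.90%, 1.49% and 1.38% and the Wnt7a promoter at 1.32%, 1.29%, 0.836% and 0.823%. In none of the 5 did the strains overlap, but this largely follows from choosing them by that p. None passed after adjustment. Sums of reads weight cytosines by depth. In the Wnt11 body, for example, summed reads differed by 10.98 points between strains and the mean of its cytosines by 0.312 points.

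The 5 cytosines that passed Fisher's test were in Wnt10a, Wnt5a, Dkk3, Wnt4 and Fzd5, and they were named after their values were seen. The largest difference was at 74792021 on the plus strand of chromosome 1, 2 bp downstream of the Wnt10a TSS in an untranslated exon. It was methylated at 68.4%, 37.5%, 8.00% and 13.4%, with an adjusted p of 0.846 in the logistic model. Its coverage was 19 and 16 reads in the mixed mice, where 6 neighbours on the same strand had medians of 68.5 and 91.5, and 75 and 97 in the B6 mice, where they had 80.5 and 101.5. The neighbours were between 2.72% and 3.32% in all 4 mice. The part of the lower coverage in this difference was not tested. Without this cytosine the Wnt10a promoter was at 5.13%, 5.73%, 4.86% and 6.35%, and the strains overlapped.

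At the Dkk3 cytosine at 112159103 on chromosome 7, 28 bp downstream of a TSS, the mixed mice were at 92.9% and 85.0% and the B6 mice at 50.0% and 53.5%. Its coverage of 28, 20, 48 and 43 reads was below the medians of 44 to 60 at 3 neighbours in each mouse. The Wnt5a cytosine at 28509370 on chromosome 14, in an intron, was at 38.1%, 31.3%, 14.2% and 4.93%, at the same coverage as its neighbours to within 1 read. The Wnt4 cytosine at 137296441 on chromosome 4, in a coding exon, was lower in the mixed mice, at 70.8% and 56.3% against 95.7% and 98.1%. The Fzd5 cytosine at 64734908 on chromosome 1, also coding, was low in B6-1 alone, at 17.6% against 61.5% to 69.8% in the other mice.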

How the data were processed

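Enhanced reduced representation bisulfite sequencing (ERRBS) was done by the authors on liver DNA of 4 male mice, 1 library each. Per the labels, DNA was digested with MspI and size-selected to 70 to 320 bp, whereas the study's text describes ERRBS in general as pairing TaqαI with MspI. The DNA was treated with bisulfite and sequenced as single-end reads of 50 cycles. The methods name BSMAP as the aligner, whereas the submitters' processing notes name Bismark and SAMtools, and the genome is mm10. Their versions are not given in the sources used here. The deposited coverage is the raw count of reads at a cytosine of a CpG, each strand apart, at 10 or more. Beside it the authors give the percent read as C and the percent read as T.

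Methylated read numbers were recovered from percent and coverage. Groups and replicate numbers came from the sample labels. The 1276684 cytosines common to the 4 mice were placed on curated RefSeq transcripts of GRCm38, the assembly of mm10. The promoter reached 1000 bp from a TSS in either direction and the flank 3000 bp from the gene. Member genes, pathway genes and marker genes were chosen with earlier results of these data known. Genes named in each region were the 2 highest and the 2 lowest of each class among those with at least 5 cytosines and, in the strain comparison, those with a called cytosine or region. Other genes were named after their values were seen. The name Tf in the hepatocyte list matched no symbol. Promoter sequences came from RefSeq for this assembly, which held 26 of the 36 members, and coding stretches from its genome.

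Classes were compared by a two-sided exact permutation test of sign flips over mice and strains by an exact permutation of labels. Cytosines and regions were tested with a logistic model whose overdispersion was moderated by limma 3.58.1 (R 4.3.3, the data.table package of version 1.17.8), with Benjamini-Hochberg adjustment over all cytosines or regions. The overdispersion towards which values were moderated was 1.79 for cytosines and 3.39 for regions. In simulated data for the strain comparison, 144 of 200 changed cytosines were recovered. Python 3.11.15, numpy 2.4.6, scipy 1.17.1, pandas 2.3.3 and matplotlib 3.10.9 did the rest. Alternatives were other coverage limits, merged strands, pooled reads, equal gene weights, other promoters, flanks and transcripts, neighbouring genes left out, other tests, a replicate block and leaving out each mouse. Leaving out Dkk3 or Wnt8a, and limma on means of cytosines for regions, were chosen after seeing the data. At the coverage minimum of 10, 1 read moves a level by 10 points. Depth sets only the counting error, as PCR copies of a fragment are not independent. Non-CpG cytosines, brain and zebrafish data were not used here.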

Additional observations from a re-analysis of the deposited data

Results flagged for a closer look

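Member cytosines read at least 10 times in some mice but not in all 4 were left out of the comparisons. Outside the common set lay 202 and 79 member cytosines in the mixed mice and 679 and 602 in the B6 mice. Their mean methylation was 27.9%, 38.0%, 24.6% and 26.4%, against 12.5%, 12.6%, 12.2% and 12.4% in the common set of the same mice. These levels are above the limit of 3 methylated reads, which is 0.105%, 0.221%, 0.0158% and 0.0203%. Median coverage outside the common set was 13, 14, 23 and 20 reads, against 46, 50, 72 and 67 inside it. The member levels given here therefore describe the more deeply covered and less methylated cytosines of these genes, and the part of coverage in this difference was not tested.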

How the results depend on the processing

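Of 314 values recomputed for 20 results, 289 kept their direction or count, 24 reversed and 1 count moved. Of the reversals, 16 were in flanks, 5 in bodies and 3 in promoters, and 0 came from leaving out a mouse. The alternatives reversed 10 of 18 level results. In flanks, ligands minus antagonists became -6.12 points at a coverage minimum of 20, -2.17 with strands merged, -4.14 with reads pooled, -4.21 with promoters of 2000 bp on each side and -10.8 with flanks of 5000 bp. With equal gene weights, flank differences were -32.6 for ligands minus receptors, -21.2 for ligands minus antagonists, 11.4 for receptors minus antagonists and -12.6 for members minus all genes. With Wnt8a also left out they were -32.0, -20.6, 11.4 and -11.6. Without cytosines near starts of other genes, flank differences were -2.55 for ligands minus receptors, 4.11 for receptors minus antagonists and -17.6 for members minus all genes, and the body difference of ligands minus receptors was 3.83. With promoters upstream only, body differences were 7.12 for ligands minus receptors, 7.49 for ligands minus antagonists and 0.373 for receptors minus antagonists. Among promoters, ligands minus antagonists was 2.47 with equal gene weights and 0.250 without Dkk3, and ligands minus receptors was -1.40 with promoters of 2000 bp. With reads pooled, the body difference between strains was -0.449 points. Beyond what each alternative changes by its construction, the cause was not tested. Fisher's test on reads summed by strain called 5 member cytosines, where the logistic model called 0.

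The mice of the strains share only the numbers 1 and 2, and deviations of same-numbered mice had a correlation of -0.0241 over member cytosines. With the replicate block, differences between strains were 0.106, 0.448 and 1.28 points in promoters, bodies and flanks, with an exact sign-flip permutation p of 0.5, the smallest that 2 pairs allow, and 0 member cytosines and 0 member regions were called. The block moved the calls over all cytosines from 84 to 155. Over all cytosines, calls without Mixed-1, Mixed-2, B6-1 or B6-2 numbered 242, 305, 36 and 40.

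The deposited cytosines cover 19.0% of the CpGs in these windows and only 6.48% in the antagonists, and with 4 mice the smallest exact permutation p of a class contrast is 0.125. In simulated data the strain model recovered 72% of cytosines changed by 50 points and 62.5% of regions changed by 20 points. Of the unchanged ones, 1.14% of cytosines and 1.69% of regions had an unadjusted p under 0.05 in this logistic model. In the real data 2.07% of cytosines and 8.56% of regions did. The simulated spread between mice may thus be too small, and recovery in the real data may be lower.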
